A study of Arabidopsis thaliana with 8 samples.

Results

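FRO3, the Ib bHLH genes BHLH38, BHLH39, BHLH100 and BHLH101, and PYE, NAS4 and OPT3 are genes known for their induction when Arabidopsis is short of iron. These 8 genes, of 24648 loci on the array, were found by their loci and were measured by 10 of the 27387 gene probes; BHLH100 had 3 probes and every other gene had 1. The set was chosen by its log2 ratios between the crosses at 3 d and 6 d, so those ratios and their difference between stages are given below as a description with no test.

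Isolated embryos of M0191 mothers pollinated by bdl, referred to as the bdl cross, were compared on 2-colour arrays with embryos of M0171 mothers pollinated by Col-0, referred to as the Col-0 cross. Embryos were taken at 3 d and at 6 d, with 4 arrays per stage, and the design text calls the replicates biological. By the labels, Cy5 marked bdl RNA on replicates 1 and 2 and Col-0 RNA on replicates 3 and 4. Cy3 was in the other channel, and every sample is labelled with the ecotype Col-0. The name bdl stands for bodenlos, a dominant mutation that stabilises the auxin response repressor IAA12; the labels say neither what the stock lines M0191 and M0171 carry nor whether embryos of several plants were pooled. Both parents differed between the crosses, so their contributions cannot be told apart.

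As background, iron-starved Arabidopsis plants reduce ferric iron at membranes with FRO enzymes, make the chelator nicotianamine with NAS enzymes, and load iron and other metals into the phloem with OPT3. The Ib bHLH proteins pair with the bHLH protein FIT to activate root iron uptake, while PYE, also a bHLH protein, represses a set of iron homeostasis genes. The E3 ligase BTS restrains the upstream bHLH proteins, and ferritins such as FER1 store iron in plastids and are known to rise when iron is ample. Seeds receive their iron from the mother plant through the seed coat.

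At 3 d, the signal of 74.3% to 81.2% of gene spots exceeded the 95th percentile of the blank spots, the limit meant below by above the blank spots; it was 24.5 to 81.2 signal units in the bdl channel and 28.0 to 77.7 in the Col-0 channel. Median signals were 319 to 351 and 315 to 350. IAA12 was raised 10.6-fold in bdl embryos at 3 d (log2 ratio 3.40 ± 0.07, SE, n = 4, limma adjusted p = 0.0225) and 1.24-fold higher at 6 d (0.31 ± 0.06, SE, n = 4, limma adjusted p = 0.0282), and MP, the response factor that IAA12 binds, was lower at both stages (−0.82 and −1.18, limma adjusted p = 0.041 and 0.0108). All 10 embryo markers lay above the blank spots on at least 2 arrays, with sums of 22375 to 64550 in the bdl channel and 22414 to 60356 in the Col-0 channel. Of the endosperm markers 7 of 9 did, FIS2 and IKU2 being the exceptions, with sums of 11743 to 15792 in the bdl channel and 6577 to 7818 in the Col-0 channel. All 12 seed coat markers did too, with sums of 118546 to 159972 and 75569 to 109239. None of the markers lay below that limit on every array. The endosperm and seed coat sums were thus higher in the bdl cross on every 3 d array. MPC made up 58.4% to 79.9% of the endosperm sum in the bdl channel, and without it the sums were 3171 to 4890 in the bdl channel and 1989 to 3814 in the Col-0 channel, still higher in the bdl cross on each array. LEC1 made up 21.4% to 63.5% of the embryo sum in the bdl channel. Without LEC1 the embryo sums were 13973 to 23555 in the bdl channel and 14892 to 34652 in the Col-0 channel. They were then lower in the bdl cross on each array. Gene by gene, all 10 embryo markers passed by limma at 3 d, 6 higher and 4 lower. Of the endosperm markers tested 2 of 7 rose (MPC and AGL36), as did 4 of 12 seed coat markers, and none fell. Among those that did not pass were AGL62 at 0.10, FWA at 0.19 and ZOU at −0.55. The part of these tissues in the results below was not tested.

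FRO3 (AT1G23020), a ferric chelate reductase, had the smallest SD of log2 ratios between arrays at 3 d among the members with 4 values. Its signals in the bdl cross were 1804, 1557, 821 and 1230 on replicates 1 to 4. In the Col-0 cross they were 8575, 7908, 3750 and 5600 on the same arrays. The groups did not overlap, the lowest Col-0 signal being above the highest bdl signal. The log2 ratios were −2.25, −2.34, −2.19 and −2.19, a mean of −2.24 ± 0.07 (SD, n = 4), which is a 4.73-fold lower signal in the bdl cross. By the labelled dyes, the mean was −2.30 with bdl in Cy5 and −2.19 with bdl in Cy3. Of 19232 genes measured at 3 d, 0.385% had a mean log2 ratio as low as FRO3. In bulk RNA, fewer cells that express a gene and less of its RNA per cell cannot be told apart.

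OPT3 (AT4G16370), an oligopeptide transporter family member that moves metals into the phloem, was also lower in the bdl cross on each 3 d array. Its bdl signals were 3373, 3472, 4195 and 311, against 7595, 7587, 7836 and 900 in the Col-0 cross. Replicate 4 stood far below the others in both channels, at 8.45% of the mean of replicates 1 to 3 in the bdl channel and 11.7% in the Col-0 channel. The log2 ratios were −1.17, −1.13, −0.90 and −1.53, with a mean of −1.18 ± 0.26 (SD, n = 4), or 2.27-fold lower. The groups overlapped in signal through replicate 4 alone, and the ratio within replicate 4 pointed the same way as the others.

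PYE (AT3G47640), the bHLH repressor of iron homeostasis genes, read 448, 614, 480 and 75.9 in the bdl cross and 780, 925, 817 and 194 in the Col-0 cross. Its replicate 4 signals were likewise low, at 14.8% of the mean of replicates 1 to 3 in the bdl channel and 23.1% in the Col-0 channel, and the bdl signal of that array did not pass the blank spots. The log2 ratios were −0.80, −0.59, −0.77 and −1.36, with a mean of −0.88 ± 0.33 (SD, n = 4), or 1.84-fold lower. Replicates 1 to 3 did not overlap between the crosses, and replicate 4 gave the lowest signal in both.

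Of the Ib bHLH genes, BHLH100 (AT2G41240) alone was above the blank spots in both crosses on all 4 arrays, with probes 2 and 3, and its 3 probes disagreed in size. Probe 3, which the array design assigns to gene model 2, was the brightest and gave the gene's value: 199, 335, 300 and 452 in the bdl cross and 292, 449, 392 and 644 in the Col-0 cross. Its log2 ratios were −0.55, −0.42, −0.39 and −0.51, a mean of −0.47 ± 0.08 (SD, n = 4). The signals of the crosses overlapped between arrays, while within each array bdl was lower. Probe 2, of gene model 1, read 129, 168, 178 and 133 in the bdl cross and 235, 305, 291 and 438 in the Col-0 cross, and the groups did not overlap. Its log2 ratios were −0.86, −0.86, −0.71 and −1.72, a mean of −1.04 ± 0.46 (SD, n = 4). Probe 1, also of gene model 1, had values on replicates 2 and 3 alone, with 63.9 and 35.3 in the bdl cross against 638 and 593 in the Col-0 cross, which gave log2 ratios of −3.32 and −4.07. All 10 array values of the 3 probes were below 0, and their means ran from −0.47 to −3.69.

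BHLH39 (AT3G56980) had values on replicates 2, 3 and 4, which were 128, 1.41 and 28.9 in the bdl cross and 147, 70.9 and 539 in the Col-0 cross. The bdl signal lay above the blank spots on replicate 2 alone and the Col-0 signal did on all 3. The log2 ratios of −0.20, −5.65 and −4.22 had a mean of −3.36 ± 2.82 (SD, n = 3), so the spread between arrays was nearly as large as the mean, which was −4.93 without replicate 2, −2.21 without replicate 3 and −1.43 with normexp background correction, and the ratios of replicates 3 and 4 rest on bdl signals not well above background. BHLH38 (AT3G56970), its direct neighbour in the RefSeq gene order, had a value on replicate 4 alone, 35.1 in the bdl cross, not well above background, and 80.1 in the Col-0 cross, and no fold is given for a single array. BHLH101 (AT5G04150) read 33.3, 34.6 and 48.5 in the bdl cross and 57.5, 42.5 and 68.9 in the Col-0 cross on replicates 2 to 4, each cross being above the blank spots on 1 array. Its log2 ratios of −0.79, −0.30 and −0.51 (mean −0.53 ± 0.25, SD, n = 3) therefore describe a gene close to the background. Whether the probes tell these related bHLH genes apart was not tested, since no probe sequences were used here.

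NAS4 (AT1G56430), a nicotianamine synthase, was not well above background in either cross on any array, with signals of 14.2 to 20.6 in the bdl cross and 21.8 to 40.8 in the Col-0 cross on the 3 arrays with values, and no fold is given for it. In all, 6 of the 8 genes passed the filter on dim probes at 3 d, and each of those 6 had every array value below 0, as did 25.9% of all genes at that stage. The median over the 6 means was −1.03 against −0.01 over all genes. Since these ratios chose the genes, nothing is read from that difference.

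**Figure D1:**
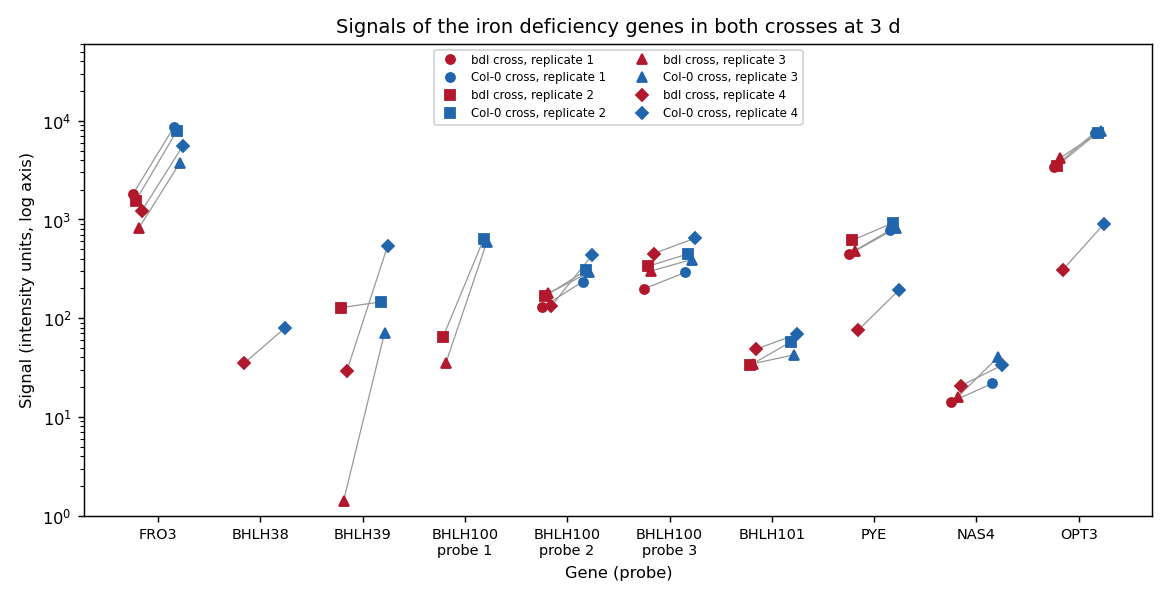
Signals at 3 d of the 10 probes of the 8 genes, in intensity units on a log axis, with the bdl cross in red, the Col-0 cross in blue and a grey line joining the crosses of 1 array; marker shapes stand for replicates 1 to 4. Every line runs upward from bdl to Col-0, the FRO3 lines run almost parallel from 821 to 1804 up to 3750 to 8575, and replicate 4 stands below the others for PYE and OPT3.

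At 6 d only log2 ratios were at hand, and their direction rests on the deposited table keeping at 6 d the convention found for its 3 d columns. FRO3 read −0.35, −1.14, −0.29 and −0.07, a mean of −0.46 ± 0.47 (SD, n = 4). All 4 arrays were below 0, as were 34.9% of all genes at that stage, but the SD was as large as the mean, and without replicate 2 the mean was −0.23. The mean of FRO3 was thus 1.78 higher at 6 d than at 3 d on the log2 scale.

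PYE lay on opposite sides of 0 at the 2 stages. Its 6 d log2 ratios were 0.46, 0.38, 0.44 and 0.40, a mean of 0.42 ± 0.04 (SD, n = 4), where every 3 d array had been below 0. The mean moved by 1.30 and the values of the stages did not overlap. OPT3 read 0.16, −1.37, −0.99 and −0.77 at 6 d (mean −0.74 ± 0.65, SD, n = 4), with replicate 1 on the other side of 0 from the rest, and its 6 d range overlapped that at 3 d.

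BHLH100 stayed below 0 on all 4 arrays at 6 d with both of its complete probes. Probe 3 read −1.41, −0.76, −0.29 and −0.80 (mean −0.81 ± 0.46, SD, n = 4) and probe 2 read −0.97, −1.50, −0.54 and −0.18 (mean −0.80 ± 0.57, SD, n = 4). Between the stages the mean of probe 3 moved by −0.34 and that of probe 2 by 0.24, so these probes went opposite ways. Probe 1 read 1.10, −0.12 and −0.08 on replicates 1, 3 and 4, and its positive mean of 0.30 rested on replicate 1, without which it was −0.10.

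The remaining members gave little at 6 d. BHLH39 had 1 value, −3.57 on replicate 1, and NAS4 had values of −1.69 and 1.16 on replicates 1 and 4. BHLH38 and BHLH101 had none that could be matched. Of the 8 genes, 4 had enough values at 6 d, and FRO3 and BHLH100 were the 2 with every value below 0. The median over those 4 means was −0.60 against −0.02 over all genes. The 6 d ratios also helped to choose the genes, so nothing is read from that difference.

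**Figure D2:**
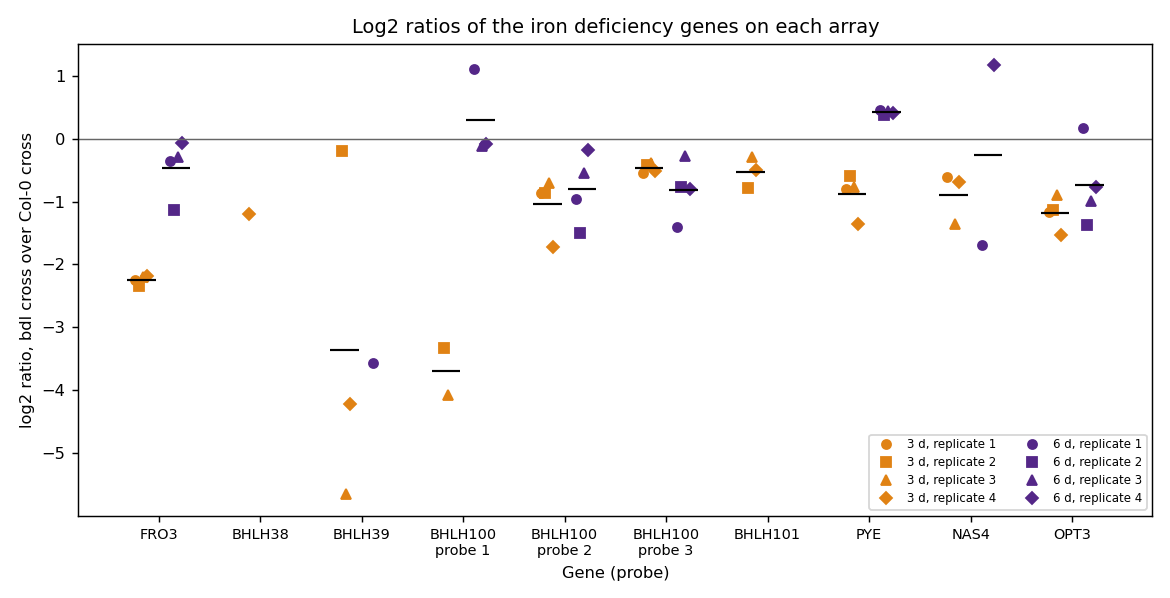
Log2 ratios (bdl over Col-0) for the same 10 probes, 1 point per array, with 3 d in orange and 6 d in purple; black bars are means of probes with more than 1 value. FRO3 lies near −2.24 at 3 d and between −1.14 and −0.07 at 6 d, PYE crosses 0 between the stages, and BHLH39 spreads from −0.20 to −5.65.

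Other genes of iron handling, written as lists from general knowledge of the pathway, were tested in the same limma fits over all genes. Of 58 such genes 49 were on the array and 36 were tested at 3 d, of which 4 rose and 3 fell in the bdl cross (19.4%), against 13.1% of all 19232 genes tested (7.00% higher, 6.08% lower). Their median log2 ratio was 0.00 against −0.01 over all genes. By list, 3 of 13 tested regulators passed the test (1 higher, 2 lower), 1 of 4 genes of root iron uptake (higher), 3 of 11 genes of iron storage and organelle transport (2 higher, 1 lower), and 0 of 6 genes of chelation and movement and 0 of 2 other ferric reductases. At an unadjusted p under 0.05, 11 of the 36 passed (30.6%) against 36.1% of all genes, so the share lay above that of all genes at the adjusted threshold and below it at the unadjusted one.

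The largest rise was that of FER1 (AT5G01600), the ferritin best known for its induction by iron. Its signals were 4765, 7148, 5160 and 10367 in the bdl cross and 1069, 1629, 1148 and 2259 in the Col-0 cross, with no overlap. The log2 ratios of 2.16, 2.13, 2.17 and 2.20 gave a 4.48-fold rise (2.16 ± 0.06, SE, n = 4, limma adjusted p = 0.0225). The other ferritins tested did not pass: FER4 read 0.59, 0.84, 0.91 and −0.36 (limma adjusted p = 0.278) and FER2 read 0.97, 0.87 and −0.23 on 3 arrays (limma adjusted p = 0.144). The replicate 4 signals of FER4 were far below the others. They stood at 6.11% of the mean of replicates 1 to 3 in the bdl channel and 13.6% in the Col-0 channel.

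BTS (AT3G18290), the E3 ligase that is itself induced by iron shortage, fell 1.76-fold. Its signals were 1055, 1150, 1185 and 455 in the bdl cross and 1862, 2115, 2190 and 735 in the Col-0 cross, and the crosses overlapped in signal through replicate 4 alone. The log2 ratios of −0.82, −0.88, −0.89 and −0.69 had a fitted value of −0.82 ± 0.07 (SE, n = 4, limma adjusted p = 0.0313). VTL2 (AT1G76800), a vacuolar iron transporter-like gene, fell 1.78-fold, with log2 ratios of −0.91, −0.74, −0.69 and −0.98 (−0.83 ± 0.09, SE, n = 4, limma adjusted p = 0.0339).

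The locus AT1G47400, listed here among the regulators as IMA1 but without a gene symbol in the RefSeq table, fell 3.50-fold. It read 72.3, 107, 67.3 and 140 in the bdl cross and 418, 244, 261 and 411 in the Col-0 cross, with no overlap, and its bdl signal was above the blank spots on 3 of the 4 arrays. Its log2 ratios of −2.53, −1.19, −1.95 and −1.55 gave a fitted value of −1.81 ± 0.28 (SE, n = 4, limma adjusted p = 0.0496), and the call ended with no filter on dim probes (limma adjusted p = 0.0587) and with the mean over probes (0.0522). Its neighbour AT1G47395, singled out after its values were seen, had values on 3 arrays, with signals of 18.8, 18.1 and 142 in the bdl cross and 82.4, 159 and 289 in the Col-0 cross. Its bdl signal was above the blank spots on 1 of them and its Col-0 signal on all 3, and it did not pass (limma adjusted p = 0.165).

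MYB10 (AT3G12820), a MYB factor of the iron deficiency response in roots, rose 1.65-fold (0.72 ± 0.07, SE, n = 4, limma adjusted p = 0.0331). IRT2 (AT4G19680), an iron transporter of the root epidermis, rose 1.57-fold (0.65 ± 0.07, SE, n = 4, limma adjusted p = 0.0336). NRAMP3 (AT2G23150), which releases iron from vacuoles, rose 1.32-fold (0.40 ± 0.06, SE, n = 4, limma adjusted p = 0.0473), and its call ended with no filter on dim probes (0.057) and with the mean over probes (0.0507). For each of these 3 genes all 4 arrays were above 0. MYB10 and IRT2, which are induced by iron shortage in roots, lay on the other side of 0 from BTS and AT1G47400. They also lay opposite FRO3 and PYE, but the ratios of FRO3 and PYE chose those genes, so nothing is read from that. Leaving out any single array with the dye term kept ended all 7 calls at 3 d, as it did those of all other genes, and the cause was not tested. Without replicate 4 and without the dye term, an alternative added after the data were seen, 11 of 29 other iron genes passed (37.9%), with 7 higher and 4 lower, against 22.6% of all 17530 genes tested.

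**Figure D3:**
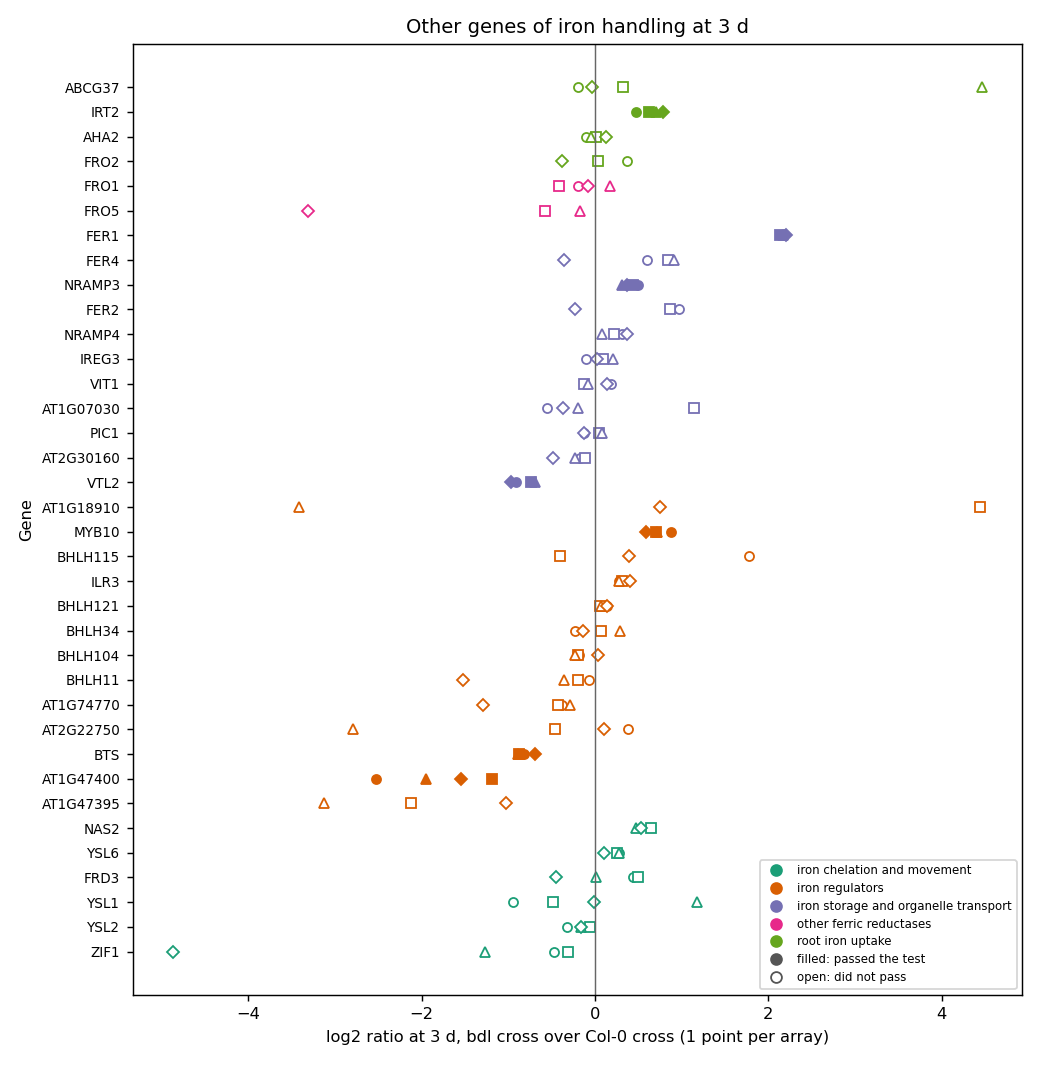
Log2 ratios at 3 d of the 36 other iron genes tested, 1 point per array with shapes for replicates 1 to 4, coloured by list; filled points mark the 7 genes that passed the limma test. The 4 arrays of FER1 fall together at 2.13 to 2.20, those of BTS at −0.69 to −0.89, and the widest spreads belong to genes that did not pass.

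At 6 d, 20 of 36 other iron genes tested passed (55.6%), 10 higher and 10 lower, against 53.4% of all genes tested (26.6% higher, 26.7% lower), so the share was close to that of all genes. The genes that had fallen at 3 d did not pass at 6 d. BTS read −0.08 ± 0.08 (SE, n = 4, limma adjusted p = 0.448), VTL2 read 0.01 ± 0.08 (limma adjusted p = 0.917) and AT1G47400 read 0.07, −1.39 and 1.19 on 3 arrays (limma adjusted p = 0.988). FER1 likewise read −0.13, 0.00, 0.01 and 0.18, a fitted value of 0.01 ± 0.07 (SE, n = 4, limma adjusted p = 0.896).

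The largest rises at 6 d were those of ABCG37, MYB10 and FRD3. ABCG37, which exports iron-binding coumarins from roots, rose 6.26-fold (2.65 ± 0.18, limma adjusted p = 0.00379), FRD3, a citrate exporter, rose 4.76-fold (2.25 ± 0.25, limma adjusted p = 0.00856), and MYB10 rose 5.92-fold (2.56 ± 0.08, limma adjusted p = 0.00257). At 3 d ABCG37 had been above the blank spots on 3 arrays in the bdl channel and 2 in the Col-0 channel, and FRD3 on 2 and 1. Smaller rises were found for NRAMP3 (0.97), the ferritin FER4 (0.76), the plasma membrane proton pump AHA2 (0.65), the metal-nicotianamine transporter YSL6 (0.61) and BHLH121 (0.43), a bHLH protein upstream of the Ib group. YSL6 and BHLH121 lost the call when 1 of the arrays was left out (limma adjusted p = 0.0541 for YSL6 without replicate 1 and 0.0829 to 0.104 for BHLH121 without replicate 1, 2 or 3).

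Lower in the bdl cross at 6 d were AT1G07030 (−1.96), ZIF1 (−1.65), a vacuolar nicotianamine transporter, AT1G18910 (−0.88), IRT2 (−0.75), the chloroplast iron permease PIC1 (−0.66) and BHLH104 (−0.37), with limma adjusted p from 0.00268 to 0.0217. At 3 d ZIF1 had been above the blank spots on 1 array in the bdl channel and 3 in the Col-0 channel, and AT1G18910 on 2 and 2. AT1G18910 lost the call without replicate 3 or 4 (0.0719 and 0.065), IRT2 without replicate 3 or 4 (0.0558 and 0.051) and BHLH104 without any 1 of the 4 (0.0709 to 0.0821). IRT1, the main root iron transporter, passed as lower (−1.37, limma adjusted p = 0.0142), but its 3 arrays read 0.48, 0.25 and −3.09, the fitted value rests on replicate 3, and with no dye term the adjusted p was 0.528. The IRT1 probe had been above the blank spots at 3 d on 1 array in each channel. FRO1, a ferric reductase gene of the FRO family, passed as lower (−1.08, limma adjusted p = 0.0329) on 3 arrays of −2.78, −2.36 and 0.41, and with no dye term the adjusted p was 0.194. At 6 d 4 of 7 endosperm markers tested were higher in the bdl cross and 8 of 12 seed coat markers were higher with 1 lower, and the part of these tissues in the 6 d values was not tested.

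The difference between the stages was tested for genes outside the chosen set, over all 8 arrays. Of 33 other iron genes tested 17 passed (51.5%), 9 higher and 8 lower at 6 d relative to 3 d, against 44.6% of all genes tested (23.9% higher, 20.7% lower). FER1 moved by −2.15 ± 0.08 (SE, n = 8, limma adjusted p = 1.82e-05). The untested move of FRO3 by 1.78 had the other sign, but the ratios of FRO3 chose that gene, so nothing is read from that. BTS moved by 0.74 ± 0.09 (limma adjusted p = 0.00102) and VTL2 by 0.84 ± 0.11 (limma adjusted p = 0.0012). Both lay below 0 on every 3 d array and near 0 at 6 d.

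MYB10 moved by 1.84 (limma adjusted p = 3.48e-05) and FRD3 by 2.13 (0.00155). IRT2 moved by −1.40 (limma adjusted p = 0.000407), with every 3 d array above 0 and every 6 d array below 0. Other genes that passed were AT1G07030 (−1.96), the ferritin FER2 (−1.04), ILR3 (−0.85), a bHLH protein upstream of the Ib group, AHA2 (0.65), the metal-nicotianamine transporter YSL2 (0.43), YSL6 (0.38) and BHLH121 (0.33). ILR3 passed at neither stage alone (limma adjusted p = 0.067 at 3 d and 0.119 at 6 d), nor did YSL2 (0.217 and 0.0786). FER2 had been above the blank spots at 3 d on 2 arrays in each channel. FER2 lost the call without 6 d replicate 2 (limma adjusted p = 0.0515), and BHLH121 lost it without 6 of the 8 arrays in turn and with a dye term of its own for each stage (0.0507). Endosperm markers moved too, 3 of 6 tested being higher at 6 d relative to 3 d, and so did 8 of 12 seed coat markers.

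**Figure D4:**
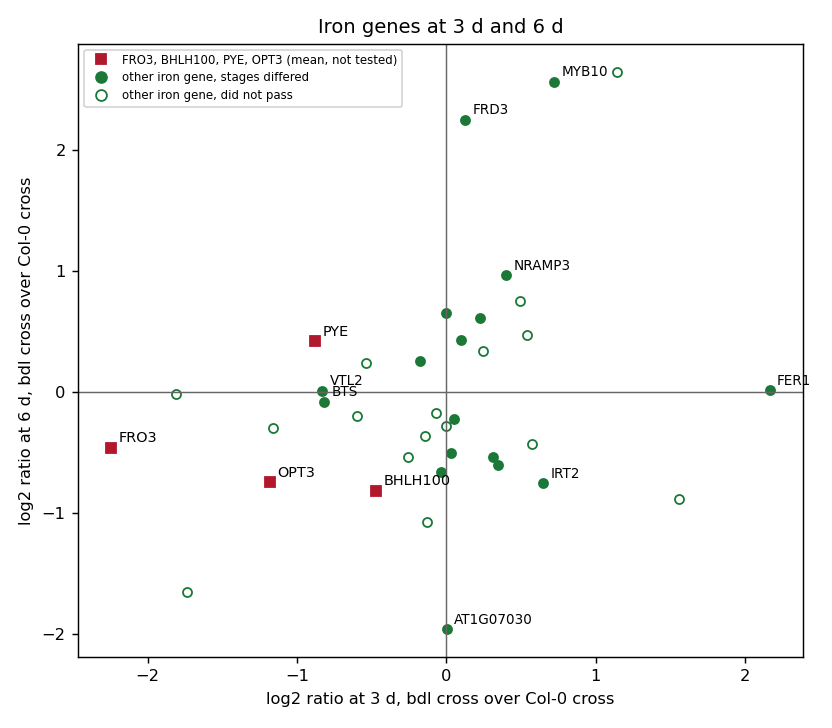
Log2 ratios at 3 d (horizontal) and 6 d (vertical), bdl cross over Col-0 cross. Red squares are array means of FRO3, BHLH100 (probe 3), PYE and OPT3. Green circles are limma fitted values of the other iron genes, filled where limma found a difference between the stages. FER1 lies far right at 2.16 and near 0 vertically, FRO3 lies far left at −2.24, and BTS and VTL2 lie left of 0 and near 0 vertically.

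The genes whose log2 ratios were nearest to those of FRO3 were sought among 15606 genes with values on all 8 arrays, by the root mean square difference. Among the nearest were LAX1 (0.389), an auxin influx carrier, MYB66 (0.403), a MYB factor of root epidermis patterning, CRF2 (0.457), a cytokinin response factor, and AT1G53815 (0.544). The means of these 4 genes ran from −1.86 to −2.32 at 3 d and from −0.53 to 0.03 at 6 d. Of the Ib bHLH genes, BHLH100 alone had values on all 8 arrays. The genes nearest to its probe 3 were SK41 (0.153), a shaggy-related kinase gene, FLA7 (0.199), EMB2016 (0.204), CHX14 (0.206) and AT5G20950 (0.214), with means of −0.36 to −0.70 at 3 d and −0.60 to −0.92 at 6 d. The 8 members were left out of the search beforehand, so none of them could appear. No gene of the other iron lists was among the genes named here, and the likeness is a description over arrays that share both crosses.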

How the data were processed

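The authors deposited, per the file headers, 1 intensity per spot and cross for each 3 d array, and a table of log2 ratios of all 8 arrays, the only source for 6 d. No source used here names the scanner, background correction, normalization or genome build. Gene spots were balanced between the channels (median log2 ratio within 0.02 of 0). Blank spots had median signals of 7.0 to 24.1, against 315 to 351 for gene spots. The planned normexp and loess steps were therefore kept as alternatives. Blank spots were not balanced: in log2 units bdl stood above Col-0 on replicate 1 (1.28) and replicate 4 (0.79). It stood below on replicate 2 (−1.18) and replicate 3 (−1.32). The signs of this offset did not follow the labelled dyes, by which bdl was in Cy5 on replicates 1 and 2, and the reason was not tested. How far this offset enters the ratios of dim probes, such as those of BHLH39 and BHLH101, was not tested. Each of the 24661 rows holding at least 2 of the 3 d values equalled 1 spot within 1e-06 as log2 of bdl over Col-0, 0 with the sign turned; medians by column were −0.0145, 0.0041, 0.0029 and −0.0056 (3 d) and −0.0323, −0.0341, −0.020 and −0.026 (6 d). The table's scale and direction at 6 d were taken from the 3 d columns, and any centring at 6 d is unknown. Columns without a known sample numbered 0, and at most 0.005% of values were equal in any of 28 pairs of arrays.

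Probes were kept at 3 d where either channel passed the 95th percentile of 1743 blank spots on at least 2 arrays; at least 3 values with both dye orientations were needed, and each locus took its probe of highest mean 3 d intensity. Names came from the RefSeq table of TAIR10.1, which held 24467 of the 24648 loci. Log2 ratios were tested with limma 3.58.1 (R 4.3.3, with the data.table package at 1.17.8) with a dye term and Benjamini-Hochberg adjustment over all genes, called at an adjusted p under 0.05, after a test on simulated data; pandas 2.3.3, numpy 2.4.6 and matplotlib 3.10.9 in Python 3.11.15 did the rest. The number of arrays limits the precision, and p-values measure the spread between samples called biological replicates. The labels do not say whether a replicate number marks a shared plant or batch at both stages. Correlations of same-numbered deviations were −0.04, −0.04, −0.08 and −0.07, against −0.08 to 0.10 for different numbers, which cannot settle it.

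The members and lists were chosen with earlier results of these data known. Named were all 8 members, each other iron gene called at 3 d, and at 6 d and for the stage difference up to 4 called genes per list of largest change, besides the 5 nearest patterns, of which 1 is not reported here. A promoter motif search was planned and not run, for want of sequences here.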

Additional observations from a re-analysis of the deposited data

Results flagged for a closer look

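Of 50 sets of 4 array values, 5 held a value far from the other 3, where chance alone gives about 1 in 20. For BHLH100 probe 2 at 3 d, replicate 4 read −1.72 against −0.86 to −0.71 on the others. BHLH104 at 3 d read 0.038 on replicate 4 against −0.23 to −0.19, and YSL6 at 3 d read 0.10 on replicate 4 against 0.26 to 0.28. ABCG37 at 3 d read 4.46 on replicate 3 against −0.19 to 0.32, with a Col-0 signal of 1.41 there. IRT2 at 6 d read −0.43 on replicate 1 against −0.89 to −0.84.

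PYE stood on opposite sides of 0 at the 2 stages on all arrays, with 6 d minus 3 d at 1.30; that difference was not tested, because it helped to choose the gene. Among the other iron genes named, the test of the stage difference itself passed for FER1 (−2.15), AT1G07030 (−1.96), IRT2 (−1.40), FER2 (−1.04), ILR3 (−0.85), PIC1 (−0.63), FRD3 (2.13), MYB10 (1.84), VTL2 (0.84), BTS (0.74), AHA2 (0.65), NRAMP3 (0.56), YSL2 (0.43), YSL6 (0.38) and BHLH121 (0.33), each by limma at an adjusted p under 0.05.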

How the results depend on the processing

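The count of genes called at 3 d, 2516, depended on the fit: 5070 with no dye term, 4859 with a dye term that follows the blank spots, 5371 with both channels above the blank spots on all 4 arrays, 4016 with normexp, 5366 with an intensity trend, 3965 without replicate 4 and the dye term (added after seeing the data), and 0 to 0 with 1 array left out and the dye term kept, where 4610 to 5356 genes had an unadjusted limma p under 0.05. For the other iron genes, 7 calls at 3 d became 0 to 0 with 1 array left out (8 to 14 at an unadjusted p under 0.05) and 11 without replicate 4 and the dye term, and at 6 d 20 calls among 36 genes became 12 to 13 among 30 to 33 (36.4% to 43.3%), where the calls over all genes fell from 10663 to 7151 to 8419 (38.8% to 45.8%). For the stage difference, 17 calls became 14 to 17 with 1 array left out, and 8403 over all genes became 7454 to 7804. The replicate block gave 7366 genes in place of 8403 and 13 other iron genes in place of 17. FER2, BHLH121 and YSL6 lost their calls there (limma adjusted p = 0.0852, 0.0876 and 0.058). Whether the replicate numbers pair the samples is not known, so these calls depend on that choice. The mean of BHLH100 probe 1 at 6 d turned from 0.30 to −0.10 without replicate 1, in a range of −0.10 to 0.51 with 1 array left out. With normexp, the 3 d means of BHLH100 probe 1, BHLH101 and BHLH39 were −2.75, −0.26 and −1.43 in place of −3.69, −0.53 and −3.36. The mean over probes of BHLH100 was −1.27. No member's mean changed sign at 3 d under any alternative run, but the 3 d ratios chose these genes, so nothing is read from that. The causes were not tested. At 3 d, signal close to the blank spots limits BHLH38, BHLH39, BHLH101 and NAS4 most.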
